A study of Mus musculus with 3 samples.

Results

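The platelet-derived growth factor (PDGF) ligands and receptors were described in bulk RNA-Seq counts of E10.5 maxillary processes, the paired swellings of the embryonic face that form the upper jaw. The 6 genes *Pdgfa*, *Pdgfb*, *Pdgfc*, *Pdgfd*, *Pdgfra* and *Pdgfrb* were taken by name from the 55401 genes listed in the count files. The data were 3 libraries of a single group, *Wnt1cre; Rosa26Dlx2/-* embryos (OE), in which Cre under *Wnt1* control removes a stop cassette and switches on a CAG-driven, Flag-tagged *Dlx2* at the *Rosa26* locus in neural crest cells. The genotype field of every library names both alleles, although the treatment field gives this genotype for the pregnant females and does not say how embryos were typed. Further, no wild-type or Cre-only library was analysed here, and the values give levels and their spread on the OE side and no effect of *Dlx2*. Tissue was dissected whole at E10.5, so surface epithelium, blood vessels and nerve, in which *Wnt1cre* acts in part or not at all, were present beside the crest mesenchyme. The labels do not say whether a sample was 1 embryo or a pool. The numbers 1 to 3 are names in order of deposition, and the spread between these samples may be technical in part.

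PDGFs are secreted dimers that signal through a pair of receptor tyrosine kinases. PDGF-A and PDGF-C act mainly through PDGFRα, PDGF-B acts through both receptors and PDGF-D mainly through PDGFRβ. In the embryonic face, *Pdgfra* marks the crest-derived mesenchyme and the ligands *Pdgfa* and *Pdgfc* are made largely by the overlying epithelium, and mice that lack *Pdgfra* in the neural crest or lack *Pdgfc* have facial or palatal clefts. *Pdgfb* is best known from endothelium, from which it recruits pericytes, the mural cells of small vessels, that carry *Pdgfrb*.

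Promoter windows of *Pdgfa*, *Pdgfc*, *Pdgfra* and *Pdgfd* are shown because they belong to the most abundant and the least abundant ligand and to the pair of genes whose level per length was closest, a ligand and the receptor it activates. Each window runs from 250 bases before to 50 bases after a gene start in RefSeq (build GRCm38.p6, the assembly that mm10 names), is written 5′ to 3′ on the strand of the gene, and was searched on both strands for the TATA box TATAAA, the box CCAAT, the GC box GGGCGG and the homeodomain core TAATTA, whose matches are in capitals.
*Pdgfa*, chr5:138994895-138995194, minus strand: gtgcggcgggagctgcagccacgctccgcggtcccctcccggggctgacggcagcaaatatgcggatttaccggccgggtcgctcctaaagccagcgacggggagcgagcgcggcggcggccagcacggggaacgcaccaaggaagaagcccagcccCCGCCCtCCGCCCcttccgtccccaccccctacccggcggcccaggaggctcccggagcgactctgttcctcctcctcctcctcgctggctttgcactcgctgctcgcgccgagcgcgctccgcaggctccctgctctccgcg
*Pdgfc*, chr3:81036166-81036465, plus strand: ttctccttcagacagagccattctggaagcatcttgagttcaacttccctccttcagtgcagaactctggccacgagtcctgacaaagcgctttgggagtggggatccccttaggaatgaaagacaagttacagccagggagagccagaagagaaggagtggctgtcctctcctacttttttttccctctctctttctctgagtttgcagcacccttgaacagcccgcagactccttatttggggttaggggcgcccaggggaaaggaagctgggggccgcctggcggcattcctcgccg
*Pdgfd*, chr9:6168236-6168535, plus strand: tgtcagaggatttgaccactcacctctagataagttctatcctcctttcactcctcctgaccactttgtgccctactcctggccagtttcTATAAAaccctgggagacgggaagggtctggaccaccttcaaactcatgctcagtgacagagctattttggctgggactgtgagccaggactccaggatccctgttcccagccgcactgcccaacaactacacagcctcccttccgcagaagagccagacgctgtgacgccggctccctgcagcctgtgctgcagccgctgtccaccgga
*Pdgfra*, chr5:75152001-75152300, plus strand: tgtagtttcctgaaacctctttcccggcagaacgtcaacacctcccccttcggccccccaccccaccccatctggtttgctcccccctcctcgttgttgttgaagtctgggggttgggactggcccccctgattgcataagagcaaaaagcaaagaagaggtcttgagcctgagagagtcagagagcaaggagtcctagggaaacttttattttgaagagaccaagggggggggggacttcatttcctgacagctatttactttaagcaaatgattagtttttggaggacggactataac

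The *Pdgfa* window held 2 copies of GGGCGG, both on the opposite strand, a motif found in 35.7% of all 32851 windows, and 73.3% of its bases were G or C against a median of 52.7% over all windows. The *Pdgfd* window held 1 copy of TATAAA, found in 13.6% of windows. This copy lies far before the gene start of the window, so the match alone does not show a working TATA box. The window also ends at 6168535, before the gene start of 6168584 in GENCODE. The *Pdgfc* and *Pdgfra* windows held none of the 4 motifs. No match of TAATTA, present in 5.29% of windows, or of CCAAT, present in 37.4%, was found in the windows shown, which says only that these letters are not in them. *Pdgfa* had a second window, at chr5:138994232-138994531 on the same strand, with 67% G or C and 1 copy of GGGCGG on the strand of the gene. The choice of the window shown was made after both were seen. *Pdgfb* and *Pdgfrb* had no entry in the table.

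The libraries held 36544554, 35351031 and 40057435 counts on genes in OE replicates 1, 2 and 3. All levels are counts per 1000000 counts on genes (CPM) scaled by TMM, a normalization that sets the bulk of genes equal between libraries. Over all genes replicates 1 and 2 were the closest pair and replicate 3 the farthest from both, with a mean chi-square per degree of freedom of 71.2 between replicates 1 and 2, 343 between 1 and 3 and 177 between 2 and 3. *Dlx2* itself, the switched-on gene, was at 235, 201 and 183 CPM, a level that without a control library does not check the genotype and does not separate the transgene from the endogenous gene. In several marker lists it was replicate 1 that stood apart. Its summed level of 8 neuron markers was 266 CPM against 24.1 and 34.8 in replicates 2 and 3, with 8 of 8 highest there, and its optic and pigment markers summed to 17.9 CPM against 134 and 208, with *Tyrp1* at 0 counts. Within the latter list, replicate 3 stood apart in *Pmel* (0.363, 5.98 and 71.8 CPM), *Dct* (0.207, 1.55 and 13.1) and *Tyrp1* (0, 0.365 and 2.34). *Lhx2*, the most abundant gene of that list, was at 7.98, 41.9 and 33.7 CPM, with replicate 1 apart. Replicate 1 also had *Xist* at 671 CPM, against 0.309 and 0.557, and no count of 4 genes of the Y chromosome that summed to 146 and 109 CPM in the others. By these genes replicate 1 was female and replicates 2 and 3 were male. Sex therefore cannot be told apart from other differences between replicate 1 and the rest. Of the labelled tissue, all 8 crest mesenchyme markers were detected in each library at a summed 1546, 1561 and 1645 CPM, led by *Prrx1* and *Twist1*.

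*Pdgfa* (ENSMUSG00000025856, chromosome 5 of mm10, 138976014 to 138997370, minus strand), the ligand for PDGFRα homodimers, was the most abundant ligand. It had 4065, 2994 and 2744 counts in replicates 1, 2 and 3, which is 105, 84.1 and 72.8 CPM. Its mean was 87.4 ± 16.5 CPM (SD, n = 3), and replicate 1 was the highest of the 3. The 95% exact Poisson intervals of the counts, which cover counting error only, were 102 to 109, 81.1 to 87.2 and 70.1 to 75.6 CPM and did not overlap. The gene has 7 annotated transcripts, whose separate levels a count per gene does not give. Of its exonic bases, 26.1% are shared with *6330403L08Rik*, an antisense gene on the other strand that was at 29.4, 19.0 and 8.28 CPM. The strand setting of the counting is not given in the sources used here, so reads from the shared bases cannot be told apart between this pair. Reads over more than 1 gene, 6.10% to 6.96% of reads, were listed as ambiguous and entered no gene, and over its unshared bases alone *Pdgfa* would stand at 37.9 in place of 28.0 CPM per kb.

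*Pdgfc* (ENSMUSG00000028019, chromosome 3, 81036416 to 81214040, plus strand) encodes a ligand with a CUB domain that a protease must remove before it binds PDGFRα. It varied more than any other member in relative terms. Its 2251, 1509 and 1117 counts correspond to 58.3, 42.4 and 29.7 CPM, a mean of 43.5 ± 14.4 CPM (SD, n = 3). The highest library, replicate 1, was at 1.97 times the lowest, replicate 3, and the Poisson intervals of 55.9 to 60.8, 40.3 to 44.6 and 27.9 to 31.4 CPM were apart.

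*Pdgfb* (ENSMUSG00000000489, chromosome 15, 79995874 to 80014977, minus strand), the endothelial ligand, was lower and steadier. It had 545, 593 and 599 counts, or 14.1, 16.7 and 15.9 CPM, with a mean of 15.6 ± 1.30 CPM (SD, n = 3). Replicate 1 was the lowest here, and its Poisson interval of 12.96 to 15.36 CPM overlapped those of replicate 2 (15.35 to 18.06) and replicate 3 (14.65 to 17.23). *Pdgfd* (ENSMUSG00000032006, chromosome 9, 6168584 to 6378850, plus strand), the other CUB domain ligand, was the member with the fewest counts. Its 81, 48 and 48 counts gave 2.10, 1.35 and 1.27 CPM, a mean of 1.57 ± 0.456 CPM (SD, n = 3). The Poisson intervals reached from 1.67 to 2.61 CPM in replicate 1, from 0.994 to 1.79 in replicate 2 and from 0.939 to 1.69 in replicate 3, so that replicate 1 overlapped both others by a narrow margin.

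The receptors were among the steadiest members. *Pdgfra* (ENSMUSG00000029231, chromosome 5, 75152292 to 75198215, plus strand), the receptor of facial mesenchyme, had 3530, 2892 and 2867 counts, or 91.5, 81.3 and 76.1 CPM. Its mean was 82.9 ± 7.82 CPM (SD, n = 3), with replicate 1 highest. Of its exonic bases 6.50% are shared with other annotated genes, of which *Gm42802*, *Gm42803* and *Mir7025* had at most 1 count in any library. *Pdgfrb* (ENSMUSG00000024620), the receptor of pericytes and other mesenchyme, had 5084, 5150 and 5472 counts, or 132, 145 and 145 CPM. Its mean of 141 ± 7.65 CPM (SD, n = 3) was the highest of the 6 members, and replicate 1 was the lowest of the 3 libraries under TMM, a place that replicate 3 took with total counts. The summed level of both receptors was 223, 226 and 221 CPM, while that of the 4 ligands was 180, 145 and 120 CPM.

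Levels of different genes were compared per length, as CPM per kilobase of annotated exonic bases. *Pdgfa* stood at 28.0 ± 5.29 and *Pdgfrb* at 25.7 ± 1.40 CPM per kb (SD, n = 3), followed by *Pdgfc* at 8.54 ± 2.82 and *Pdgfra* at 8.27 ± 0.780. *Pdgfb* was at 3.74 ± 0.313 and *Pdgfd* at 0.499 ± 0.145 CPM per kb. The median gene was at 3.45 CPM per kb over the 17115 genes tested, those whose mean count reached 10, among which *Pdgfa* ranked 1965, *Pdgfrb* 2136, *Pdgfc* 5479, *Pdgfra* 5585, *Pdgfb* 8255 and *Pdgfd* 13759. The ranges of *Pdgfa* and *Pdgfrb* over the libraries overlapped, and so did those of *Pdgfc* and *Pdgfra*, so with this length neither pair differed beyond its spread. *Pdgfa* was the higher in replicates 1 and 2 and *Pdgfrb* in replicate 3. The other neighbours in this order did not overlap. *Pdgfrb* was 2.10 to 4.55 times *Pdgfc*, *Pdgfra* 1.99 to 2.69 times *Pdgfb*, and *Pdgfb* 5.10 to 9.46 times *Pdgfd* within a library. Without replicate 1 both close pairs changed places, with *Pdgfrb* at 25.8 against 24.5 for *Pdgfa* and *Pdgfra* at 7.64 against 6.89 CPM per kb for *Pdgfc*. The order of the means was the same with the longest annotated transcript or the longest coding sequence as length, but the gaps were not. With the longest transcript *Pdgfa* was at 51.1, 40.8 and 35.4 and *Pdgfrb* at 24.3, 26.7 and 26.8, which no longer overlapped, as they did not over coding or unshared bases. The longest coding sequence put *Pdgfa* at 138, *Pdgfrb* at 42.5 and *Pdgfc* at 42.0 CPM per kb, with the latter pair overlapping and *Pdgfc* above the range of *Pdgfra*. Over exonic bases shared with no other gene, *Pdgfra* at 8.85 stood just above *Pdgfc* at 8.79.

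**Figure D1:**
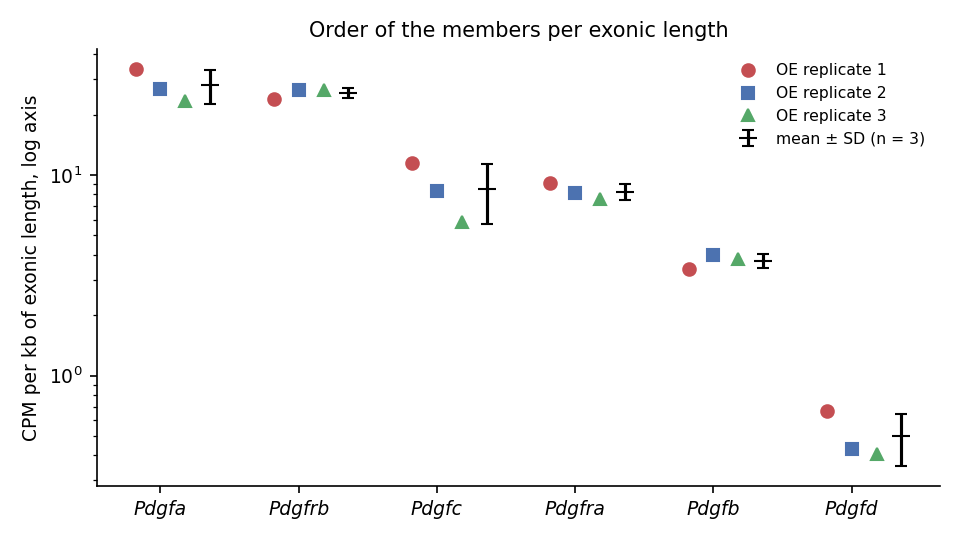
Level of each member in CPM per kilobase of exonic length (log axis), ordered by its mean, with 1 point for each of the 3 OE libraries and the mean ± SD (n = 3) in black. *Pdgfa* and *Pdgfrb* overlap near the top, *Pdgfc* and *Pdgfra* overlap near 8 CPM per kb, and *Pdgfd* lies lowest at 0.499.

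Ratios within a library do not depend on the scaling between libraries, but their change between libraries can follow gene length, as given further below. *Pdgfrb* was at 2.64, 3.26 and 3.49 times *Pdgfra* per length in replicates 1, 2 and 3, a mean of 3.13 ± 0.443 (SD, n = 3). The size of this ratio rests on the length used, since the 9 annotated transcripts of *Pdgfra* cover 10024 exonic bases but the longest has 6834, while *Pdgfrb* has 5478 and 5423. With the longest transcript the ratio was 2.15, and *Pdgfrb* remained the higher receptor, as it was in raw counts by 1.44, 1.78 and 1.91 times. Among the ligands, *Pdgfa* made up 68.5%, 67.9% and 69.9% of the sum per length, so its share moved little although its level did. The share of *Pdgfc* was 23.3%, 20.97% and 17.4%, that of *Pdgfb* 6.89%, 10.1% and 11.4%, and that of *Pdgfd* 1.35%, 1.08% and 1.21%. The summed receptor level per length was 0.673, 0.869 and 1.02 times the summed ligand level, a mean of 0.854. In raw counts without length the mean was 1.55, so which sum is larger depends on the length. Of these 2 sums, that of the receptors stayed at 33.2, 34.5 and 34.1 CPM per kb and that of the ligands was 49.3, 39.7 and 33.4.

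Whether the 3 libraries differed in a member by more than counting error was tested with a chi-square test on the counts of each of the 17115 genes, a filter that all 6 members passed. All 6 were called, against 81.5% of all genes tested, so the count of members is near the background of these 3 libraries. The Benjamini-Hochberg adjusted p of this chi-square test was 2.17e-78 for *Pdgfc*, 1.58e-51 for *Pdgfa*, 1.40e-12 for *Pdgfra*, 2.37e-07 for *Pdgfrb*, 0.00900 for *Pdgfd* and 0.0212 for *Pdgfb*. The test compares libraries and not conditions, since all share the genotype. Without replicate 1, *Pdgfa*, *Pdgfc* and *Pdgfra* stayed called and the other 3 did not, while 71.2% of all genes were called. Without replicate 3, all 6 members stayed called while the share of all genes fell to 48.8%, and with the filter on low counts dropped it was 53.4% in the 3 libraries. *Pdgfb* also lost its call without replicate 2 (adjusted p of the chi-square test 0.0594) and with total counts in place of TMM (0.0849).
The size of the spread was small for most members. The coefficient of variation of CPM over the libraries was 5.45% for *Pdgfrb*, 8.38% for *Pdgfb*, 9.42% for *Pdgfra* and 18.9% for *Pdgfa*, each under the median of 27.0% over all genes tested. It was 29.0% for *Pdgfd* and 33.1% for *Pdgfc*. The biological coefficient of variation from edgeR, which draws each gene toward genes of like abundance, ran from 0.216 for *Pdgfrb* to 0.408 for *Pdgfd*, with a median of 0.339 over all genes, and only *Pdgfd* was above that median.

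Each library was then set against the mean of the other 2 on log2(CPM + 1), which understates the change of low genes. Of the members, *Pdgfa*, *Pdgfc*, *Pdgfd* and *Pdgfra* were highest in replicate 1, with log2 ratios of 0.42, 0.70, 0.42 and 0.22. Over all genes tested 39.6% were highest there. *Pdgfb* and *Pdgfrb* were lowest in replicate 1, at -0.19 and -0.14, which became -0.082 and -0.020 with total counts in place of TMM. In replicate 3 the log2 ratio was -0.73 for *Pdgfc*, -0.37 for *Pdgfa*, -0.25 for *Pdgfd* and -0.18 for *Pdgfra*. It was 0.049 for *Pdgfb* and 0.073 for *Pdgfrb*, and both turned negative with total counts, at -0.076 and -0.059, so that *Pdgfrb* was then lowest in replicate 3 and *Pdgfb* nearly alike in replicates 1 and 3. A single library against a pair allows no test.
These libraries differed along gene length, so each value stands beside the median of genes in the same length class, 1 of 10 equal classes of exonic length. For *Pdgfra*, in the longest class, that median was 0.38 in replicate 1 and -0.53 in replicate 3, and relative to it the ratio of *Pdgfra* was -0.17 and 0.35, opposite in sign to the value above. For *Pdgfc* the medians were 0.096 and -0.15, and the relative values of 0.61 and -0.58 kept their sign. *Pdgfa* had 0.53 in replicate 1 and -0.50 in replicate 3 relative to its class, and *Pdgfd* had 0.46 and -0.27. *Pdgfrb* was at -0.23 and 0.22 and *Pdgfb* at -0.22 and 0.10 relative to theirs. The ratio of *Pdgfrb* to *Pdgfra* per length, 2.64 in replicate 1 and 3.49 in replicate 3, was not adjusted for this trend. The class of *Pdgfrb* had medians of 0.096 and -0.15, against 0.38 and -0.53 for that of *Pdgfra*. The part of this trend in the change of the ratio was not tested.

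**Figure D2:**
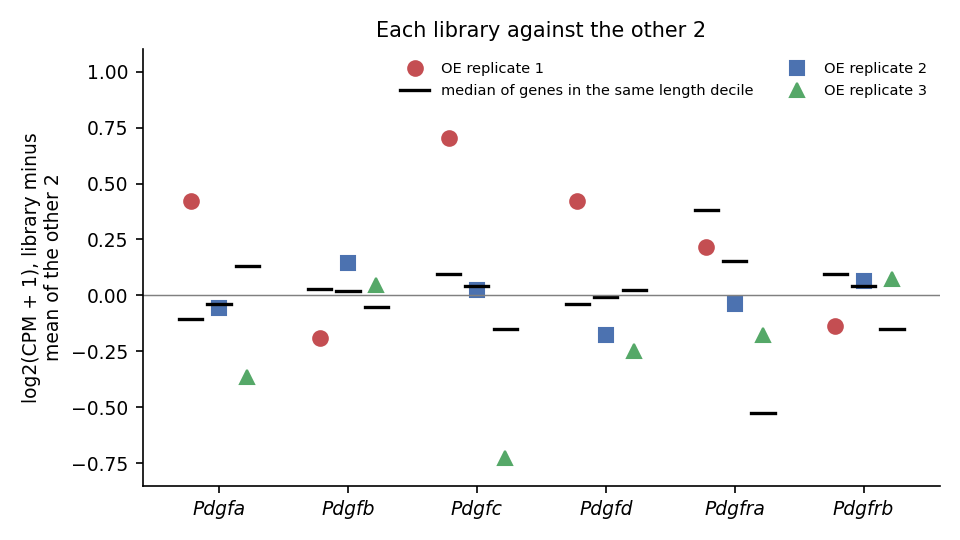
Difference in log2(CPM + 1) of each member between 1 library and the average of the other 2 (points, 1 for each OE replicate), with the median of all genes in the same length class as a black bar. *Pdgfc* has the widest spread, from 0.70 in replicate 1 to -0.73 in replicate 3, and *Pdgfra* lies inside the range that its length class spans.

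The levels of the members were set beside markers of the cell types that the dissected tissue could hold. In bulk tissue, fewer cells of a type and less RNA per cell cannot be told apart. The 8 epithelium markers summed to 391, 250 and 240 CPM in replicates 1, 2 and 3, with 6 of 8 highest in replicate 1 and a median log2 ratio of 0.72 there and -0.68 in replicate 3. *Trp63* was at 55.4, 29.6 and 11.4 CPM and *Cdh1* at 48.1, 32.5 and 13.4, while *Krt18*, the most abundant, was at 86.7, 65.5 and 108 and *Krt8* at 83.2, 49.3 and 59.2. Their sum had the order of libraries that *Pdgfa*, *Pdgfc*, *Pdgfd* and *Pdgfra* had, replicate 1 first and replicate 3 last, although relative to its length class *Pdgfra* had the opposite signs, at -0.17 and 0.35. Neuron markers (*Tubb3* at 115, 7.64 and 16.9 CPM) and glia markers (sum of 98.2, 25.2 and 26.4 CPM, *Sox10* at 37.2, 5.65 and 7.94) were also highest in replicate 1. The part of epithelium, neurons or glia in the levels of *Pdgfa*, *Pdgfc*, *Pdgfd* and *Pdgfra* was not tested.
Endothelium markers summed to 287, 336 and 366 CPM, lowest in replicate 1 like *Pdgfb* (14.1, 16.7 and 15.9). Within this list *Egfl7* was at 29.2, 44.1 and 83.2 CPM and *Cldn5* at 25.5, 28.7 and 52.2, whereas *Cdh5*, the most abundant, was at 77.7, 87.9 and 49.1, so its members did not share an order. *Tie1* was at 49.0, 60.5 and 62.5. The 8 mural cell markers summed to 193, 194 and 161 CPM and did not share an order. Of these, *Tagln* and *Kcnj8* had at most 5 counts in any library. *Rgs5*, a pericyte marker, was at 1.97, 1.35 and 1.09 CPM, highest in replicate 1. *Cspg4* went the other way, at 2.57, 4.21 and 4.49, and *Abcc9* was at 7.98, 8.23 and 3.00. *Notch3* was at 151, 156 and 88.9 CPM, *Des* at 20.6, 22.2 and 58.2 and *Acta2* at 8.99, 1.97 and 5.42. Per length, *Notch3* was at a mean of 16.3, *Des* at 8.96 and *Rgs5* at 0.323 CPM per kb, beside 25.7 for *Pdgfrb*. Crest mesenchyme markers summed to 1584 ± 53.1 CPM (SD, n = 3) and the receptors to 223 ± 2.31, and within the former list *Prrx1* was at 629, 582 and 419 CPM and *Tfap2b* at 43.9, 19.8 and 10.1. *Twist1* was at 317, 342 and 464. Myogenic markers summed to 112, 61.8 and 76.3 CPM, macrophage markers to 26.2, 30.2 and 33.6 and primitive erythroid genes to 2105, 3945 and 4899, with *Hbb-y* the most abundant at 935, 1728 and 2156. The part of these cells in the level of any member was not tested.

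**Figure D3:**
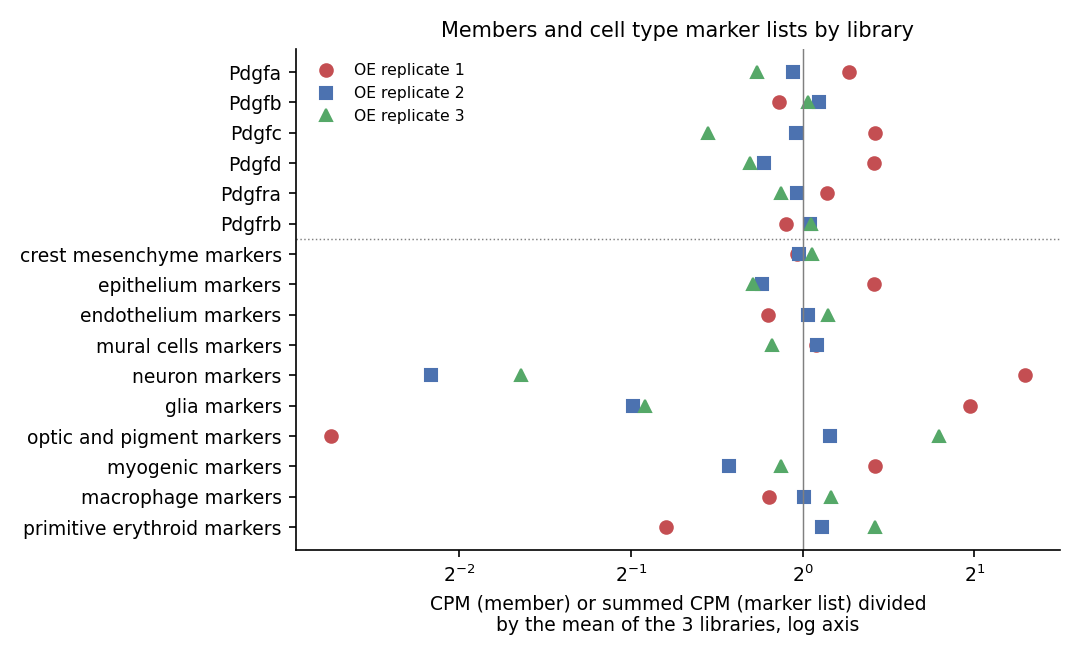
CPM of each member, and summed CPM of each marker list, divided by its mean over the 3 OE libraries (log axis), with 1 point for each library. Among the members *Pdgfc* spreads most, the receptors and the crest mesenchyme list stay near 1, and neuron, glia, optic and pigment lists spread widest.

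The other genes of the pathway were taken from lists of PDGF processing, signalling and related genes. Of 7 genes that activate or bind PDGFs, 6 were beyond counting noise, a share near the 81.5% of all genes tested. *Lrp1*, an endocytic receptor that binds PDGFRβ, was the most abundant at 204, 239 and 203 CPM, and *Sparc*, a matrix protein that binds PDGF-B, was at 109, 108 and 120. *Furin*, which cleaves the PDGF-A and PDGF-B precursors, was at 58.1, 54.1 and 41.9 CPM. For the CUB domain ligands, the PDGF-C protease *Plat* was at 11.6, 18.1 and 18.02 CPM, the lowest in replicate 1 where *Pdgfc* was highest. *St14*, a PDGF-D protease, was at 31.9, 28.1 and 23.3 and *Plau*, another, was at 6.43, 6.32 and 5.97 CPM, and *Plau* was the gene of this list that did not pass. *Nrp1*, a co-receptor, was at 14.0, 16.5 and 24.9.

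Of 32 signal transducers, 31 were beyond counting noise and 24 were highest in replicate 1, beside 81.5% and 39.6% of all genes tested. Their median log2 ratio was 0.41 in replicate 1 and -0.50 in replicate 3, against 0.0057 and -0.024 over all genes tested, and 0.25 and -0.27 relative to genes of the same length class. The largest were *Akt1*, a kinase downstream of PI3K, at 431, 465 and 439 CPM and *Map2k2*, a MAP kinase kinase, at 224, 285 and 560, which also had the widest range beside *Pdpk1*, the kinase that activates AKT, at 50.6, 34.9 and 19.5. Of PI3K, the regulatory subunits *Pik3r2* and *Pik3r1*, the kind that binds the receptor, were at 141, 157 and 211 CPM and at 27.5, 16.1 and 13.9, and the catalytic subunit *Pik3ca* was at 65.6, 60.8 and 53.5. *Akt2* was the transducer that did not pass, at 164, 162 and 167 CPM, but it was called with total counts in place of TMM, at 174, 163 and 157.
All 11 negative regulators were beyond counting noise, beside 81.5% of all genes tested. Of these regulators, 9 were highest in replicate 1, beside 39.6% of all genes, with median log2 ratios of 0.44 there and -0.53 in replicate 3, or 0.26 and -0.38 relative to their length classes. *Rasa1*, which turns off RAS and binds PDGFRβ, was at 84.7, 70.5 and 35.5 CPM and *Cbl*, a ubiquitin ligase of activated receptors, at 90.1, 73.4 and 41.5. *Dusp6* at 144, 135 and 119 and *Ptpn1* at 107, 104 and 120 CPM were the most abundant.
Of 12 genes of the SRF and early response list, 9 reached a mean count of 10 and 5 were beyond counting noise (81.5% of all genes tested), or 8 with total counts in place of TMM. *Srf* itself, which carries PDGF signals in facial crest, was at 83.8, 85.9 and 87.6 CPM and did not pass, whereas with total counts it was called, with the libraries in the opposite order at 88.5, 86.5 and 82.4. *Ier2* was at 139, 143 and 280, *Myc* at 105, 95.1 and 61.6 and *Jun* at 40.0, 58.9 and 82.0 CPM. *Fos* was at 0.466, 0.506 and 0.531 CPM.

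The nearest relatives of the PDGF genes were described in the same way. Of the 7 related receptors, 6 reached a mean count of 10 and 5 were beyond counting noise, beside 81.5% of all genes tested. All 6 were highest in replicate 2 under TMM, as were 17.2% of all genes. With total counts, *Kit* (34.3, 33.4 and 20.3 CPM) and *Flt1* (28.4, 28.1 and 18.6) were highest in replicate 1 instead. *Kdr* was at 77.6, 84.1 and 37.3 CPM and *Flt4* at 33.4, 38.2 and 15.8, both receptors of VEGF family ligands on vessels. *Flt3* had 1 count in replicate 2 and 0 in the others, which allow up to 0.0777 CPM in replicate 1 and 0.0796 in replicate 3 at 3 counts. Of the 5 related ligands 4 were beyond counting noise, near the same share of all genes. Without replicate 3, 2 of these ligands and 3 of the related receptors were called, beside 48.8% of all genes. *Vegfb* was at 59.4, 71.5 and 137 CPM, *Vegfa* at 69.9, 62.3 and 59.5 and *Pgf* at 7.38, 6.55 and 9.64. Of the genes named in these lists, *Sparc* lost its call with total counts, *Plat* and *Vegfa* without replicate 1, and *Lrp1* and *Akt1* without replicate 2. *Sparc*, *Kit*, *Flt1*, *Pgf*, *Ptpn1* and *Ier2* lost it without replicate 3.

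**Figure D4:**
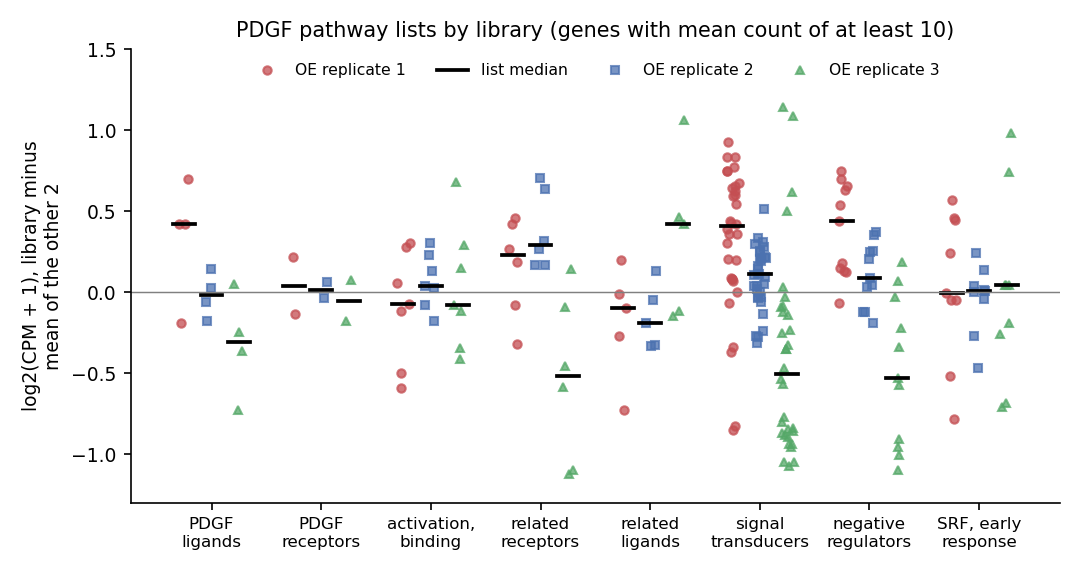
Difference in log2(CPM + 1) between 1 library and the average of the other 2, for every tested gene of the PDGF lists, with 1 point for each gene and OE replicate and the list median as a black bar. Signal transducers and negative regulators have medians above 0 in replicate 1 and below 0 in replicate 3, at 0.41 and -0.50 and at 0.44 and -0.53. The receptor members have medians of 0.039 and -0.052 because they go opposite ways. *Pdgfra* is at 0.22 and -0.18 and *Pdgfrb* at -0.14 and 0.073.

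Genes with the most similar pattern over the 3 libraries were found by the Euclidean distance between log2(CPM + 1) values centred on their mean, against the 11854 other genes whose mean count reached 100, which left out *Pdgfd*. The nearest genes were *2510009E07Rik*, *Gabra3* and *Mosmo* for *Pdgfa* (distances of 0.0045 to 0.0092), *Zc3h12c*, *Bmpr2* and *Znrf3* for *Pdgfc* (0.0096 to 0.014), *Clk3*, *2410004B18Rik* and *Ptprs* for *Pdgfb* (0.0068 to 0.0090), *Lpcat1*, *Fmn2* and *Tulp3* for *Pdgfra* (0.010 to 0.011) and *Nubpl*, *Fam69a* and *Slc15a4* for *Pdgfrb* (0.00078 to 0.0035). Over only 3 libraries such closeness is common, and from 162 genes for *Pdgfc* to 700 for *Pdgfrb* lay within a distance of 0.1. Among the members, *Pdgfb* and *Pdgfrb* were the closest pair at 0.066, *Pdgfa* and *Pdgfra* were at 0.19 and *Pdgfb* and *Pdgfc* were farthest apart at 0.79.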

How the data were processed

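Bulk RNA-Seq was analysed for 3 *Wnt1cre; Rosa26Dlx2/-* libraries. The authors deposited raw counts per gene, and the submitters' processing notes name STAR 2.7.3a, HTSeq 0.12.4 and the build mm10. The strand setting and annotation release are not given in the sources used here. Rows that name no gene held 14.2%, 15.7% and 16.4% of counted reads and were left out of library sizes. Identifiers were matched to GENCODE M21 (GRCm38) without the version, and 55141 of 55401 had an entry. Exonic length is the union of all annotated exons.

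CPM used TMM from edgeR 4.0.16, which also gave the intercept-only dispersions, with DESeq2 1.42.0 size factors as an alternative (R 4.3.3). Counting noise was tested per gene by chi-square with 2 degrees of freedom and Benjamini-Hochberg adjustment over 17115 genes at 0.05. This step was tested on simulated data. With 3 libraries of 1 genotype no test between conditions was possible. Python 3.11.15, numpy 2.4.6, scipy 1.17.1, pandas 2.3.3 and matplotlib 3.10.9 were used.

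Members and lists were chosen with earlier results of these data known. In each list the 2 most abundant genes and the 2 with the widest range of log2(CPM + 1) were to be named, and for marker lists that no sentence turns on only the sum, or the most abundant gene, is given. *Furin*, *St14*, *Plau*, *Pik3ca*, *Pik3r1*, *Pik3r2*, *Akt2*, *Srf*, *Fos*, *Flt3*, *Rgs5*, *Tagln*, *Kcnj8*, *Tyrp1*, *Xist*, the Y genes, *Dlx2*, the genes that share bases with a member, and the motifs were singled out after their values were seen. The same holds for *Cspg4*, *Abcc9*, *Dct*, *Kit* and *Flt1*. Planned protein comparisons were not made, and proteins were not used here.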

Additional observations from a re-analysis of the deposited data

How the results depend on the processing

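The 36 values and counts compared gave 207 alternative values, of which 177 kept their direction and stayed within the spread or within 1.5 times the count, 19 moved and 11 reversed. These totals do not measure stability. Leaving out 1 library can hardly move a mean level or ratio by its SD, so those values were bound to stay. Some reversals were bound to occur, since a library that lies between the others takes opposite signs against each of them. With the longest transcript as length, the share of *Pdgfa* in the ligand sum was 70.1%, *Pdgfrb* to *Pdgfra* 2.15 and receptor to ligand sum 0.645. In raw counts without length they were 59.2%, 1.71 and 1.55, and on exonic bases shared with no other gene, an alternative added after seeing the data, the share of *Pdgfa* was 74.5%. With total counts, the log2 ratio of replicate 3 was -0.076 for *Pdgfb* and -0.059 for *Pdgfrb*, and 8 genes of the SRF and early response list were beyond counting noise. Relative to the length class, *Pdgfra* was at -0.17 in replicate 1 and 0.35 in replicate 3, and *Pdgfc* at -0.018 in replicate 2. Only 1 member had a biological coefficient of variation above the median of all genes.

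With 1 library left out, 3 to 6 members were beyond counting noise, 3 of them without replicate 1, and 3 to 5 neighbouring pairs of the order were kept. The counts were 2 to 4 for related ligands and 3 to 5 for related receptors. The log2 ratio of replicate 2, then against 1 library, ran from -0.32 to 0.20 for *Pdgfa*, -0.45 to 0.50 for *Pdgfc*, -0.40 to 0.046 for *Pdgfd*, -0.17 to 0.093 for *Pdgfra* and -0.0056 to 0.13 for *Pdgfrb*, and that of replicate 3 from -0.063 to 0.16 for *Pdgfb*. Beyond the fewer libraries and the length trend these alternatives change, the cause was not tested. Depth limits *Pdgfd*, with 48 to 81 counts. With 1 group, no effect of *Dlx2* can be read, and isoforms and cell types are not resolved. No paired analysis was possible because the libraries form 1 group.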
